A study of Mus musculus with 4 samples.

Results

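Chemokine ligands are small secreted proteins that guide migrating cells by binding G protein-coupled receptors, and they are sorted into CC, CXC, C and CX3C classes by the spacing of their conserved cysteines. In a lymph node, stromal cells supply the homeostatic ligands that place B and T cells. Myeloid cells, natural killer cells and activated lymphocytes release the inflammatory ligands that recruit neutrophils, monocytes and effector T cells. The family examined here comprised every gene whose annotated symbol begins with Ccl or Cxcl and a number, together with Xcl1, Cx3cl1, Pf4 and Ppbp. It held 36 of the 17097 genes named by single-gene probe sets. The rule read symbols and no measured value, but it was set with earlier results of these data known. The 36 genes had 51 probe sets in all, and for each gene the brightest of them, averaged over the 4 arrays, stood for the gene.

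The arrays held RNA of B cells purified from lymph nodes of male Balb/C mice aged 6 to 8 weeks, by magnetic removal of other cells followed by removal of dead cells. There were 2 wild type (WT) mice and 2 miR-146a transgenic (TG) mice, with 1 array per mouse. The promoter that drives the transgene and the level of the microRNA itself were not given in the sources used here. miR-146a is best known as a brake on NF-kB signalling, the pathway that induces many inflammatory chemokines. Its mature strand, shown because it is the agent that distinguishes the groups, has its seed (bases 2 to 8) in capitals and is credited to RefSeq (GRCm38.p6, chr11:43374435-43374456, minus strand).
mmu-miR-146a-5p: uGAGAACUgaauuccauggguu

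The purified cells carried strong B cell transcripts and also those of other cells, in amounts that differed between the groups. Summed over 6 measured B cell markers, the linear signal was 10338 and 10900 on the WT arrays and 5851 and 5935 on the TG arrays, and all 6 markers were lower without overlap. Over 5 measured neutrophil markers it was 283 and 285 on the WT arrays against 1315 and 1872 on the TG arrays, and all 5 were higher without overlap. For 7 T cell markers the sums were 7717 and 7812 against 9616 and 10556, with 5 higher and 2 lower. For 5 monocyte and macrophage markers they were 1177 to 1204 against 1598 to 1913, with 4 higher. Most of these sums came from Lyz2 alone (log2 signal 10.05 and 10.01 against 10.42 and 10.71). For 4 mast cell and basophil markers the sums were 71 to 74 against 160 to 242, with 3 higher and 1 lower. The brightest of these on the TG arrays was Cpa3 (log2 signal 4.79 and 4.66 against 6.71 and 7.45). For 6 natural killer cell markers the sums were 574 to 605 against 885 to 979, with 2 higher and 1 lower. The brightest of them was Eomes, also a gene of memory CD8 T cells (log2 signal 8.04 on both WT arrays against 9.23 and 9.20). Prf1 was the other higher marker, Klra8 was lower, and Ncr1, Klrb1c and Gzmb overlapped. Over all probe sets, 17.7% were higher and 31.4% lower without overlap. The 5 measured reticular stroma markers summed to 78 and 83 against 67 and 81. Pdpn, Col1a1 and Col3a1 lay below the dim-signal limit given below. Pdgfrb (log2 signal 4.84 and 4.93 against 4.55 and 4.79) and Ltbr (4.54 and 4.64 against 4.27 and 4.70) lay above it. In bulk RNA, fewer cells of a type and less RNA per cell cannot be told apart. The part of these cells in the chemokine values was not tested. The array of TG mouse 1 was also dimmer as a whole, with a median log2 signal of 4.48 against 4.59 to 4.61 on the other 3.

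No chemokine ligand passed the threshold, a limma p under 0.05 after Benjamini-Hochberg adjustment over 45037 probe sets, in a comparison that called 0.0466% of all probe sets. At an unadjusted p under 0.05 there were 7 ligands. Ccl9, Cxcl2, Ccl6, Ccl8 and Ccl12, listed here as inflammatory CC, neutrophil-attracting or CCR2 ligands, were higher on the TG arrays. Cxcl13 and Cxcl9, ligands of lymphocyte receptors, were lower. The 5 higher genes were 13.9% of the family, where 3.21% of all probe sets were higher at that level. The 2 lower genes were 5.56%, where 10.5% of all probe sets were lower. Both TG arrays lay above both WT arrays for 15 of 36 ligands (41.7%), beside 17.7% of all probe sets. Both lay below for 8 (22.2%), beside 31.4% of all probe sets, and the groups overlapped for 13. The median difference of the ligands was 0.07 on the log2 scale, and that of all probe sets was -0.044. For 23 of the 36 the difference was smaller than 0.25 in size. Without TG mouse 2 the higher count was 16, beside 28.9% of all probe sets, and the lower count 18, beside 59.2%. Without TG mouse 1 they were 24, beside 40.3%, and 9, beside 38.8%.

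**Figure D1:**
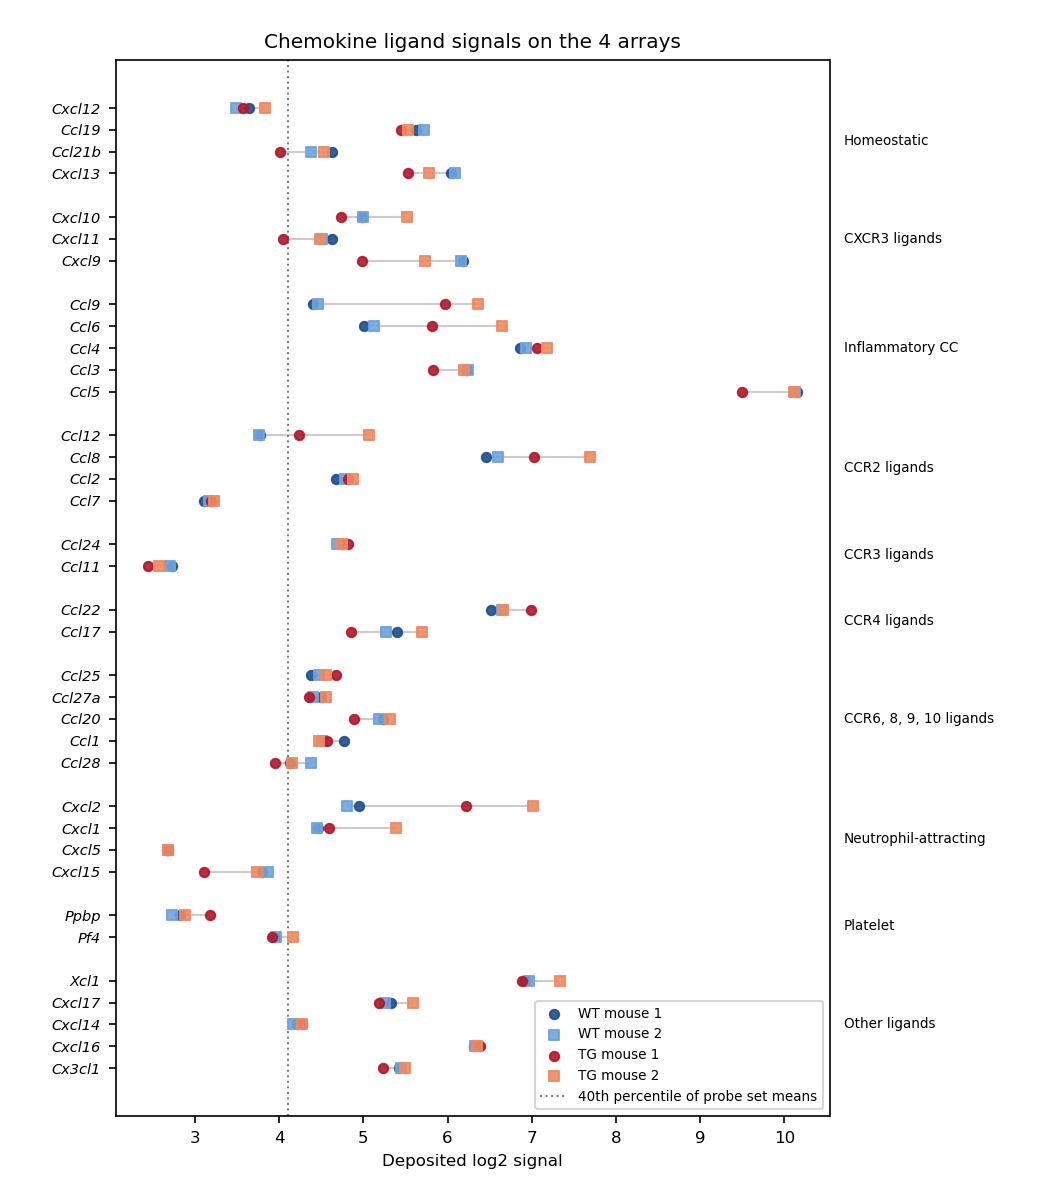
Deposited log2 signals of the 36 chemokine ligands on the 2 WT arrays (blue) and the 2 TG arrays (red and orange), grouped by receptor or role, with a dotted line at the 40th percentile of probe set means (4.1). Ccl9, Cxcl2 and Ccl6 show the widest gaps between the WT and TG points, while most other rows are narrow.

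Signals are given as deposited, on a log2 scale, and a level of 1 gene cannot be set against that of another because probe sets differ in brightness. Of the 36 ligands, 29 had a mean above the 40th percentile of all probe sets (4.1), the limit used here for dim signals, and 7 lay below it. The dim ligands were Ccl7, Ccl11, Cxcl5, Cxcl12, Cxcl15, Pf4 and Ppbp. Non-specific control probe sets averaged 2.83 to 2.95, so small differences of these genes carry little information.

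Among the ligands that attract neutrophils through CXCR2, Cxcl2 and Cxcl1 were higher on the TG arrays. Cxcl2, known as MIP-2 and made early by activated macrophages and neutrophils, measured 4.95 and 4.81 on the WT arrays and 6.22 and 7.01 on the TG arrays. Both TG values lay above both WT values, and TG mouse 2 was the highest. The mean went from 4.88 ± 0.10 to 6.62 ± 0.56 (SD, n = 2 each), a 3.32-fold difference (log2 difference 1.73, 95% interval 1.00 to 2.47, limma adjusted p = 0.149). Cxcl1, the neighbouring gene, known as KC, measured 4.46 and 4.45 on the WT arrays and 4.59 and 5.39 on the TG arrays. The groups did not overlap, but TG mouse 1 lay only slightly above the WT arrays and TG mouse 2 carried most of the difference (0.53, 95% interval -0.20 to 1.26, limma adjusted p = 0.471). Cxcl5, of the same receptor, stayed between 2.67 and 2.68 on all 4 arrays, within the range of non-specific controls. Cxcl15, a lung-enriched ligand, measured 3.80 and 3.86 against 3.11 and 3.74, and its second probe set differed the other way. On the same arrays Cxcr2, the receptor of these ligands on neutrophils, differed by 0.15 (4.64 and 4.71 against 4.88 and 4.76). The neutrophil granule gene Ngp differed by 2.77 and S100a8 by 2.58.

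The inflammatory CC ligands Ccl3, Ccl4, Ccl5, Ccl6 and Ccl9 had differences from -0.33 to 1.73. Ccl9 and Ccl6, a pair of neighbouring rodent genes known from myeloid cells and bound by CCR1, were higher. Ccl9 measured 4.40 and 4.46 on the WT arrays and 5.97 and 6.36 on the TG arrays, with a wide gap between the groups. Its mean was 4.43 ± 0.04 in WT and 6.16 ± 0.27 in TG (SD, n = 2 each), a 3.32-fold difference (log2 difference 1.73, SE 0.16, limma adjusted p = 0.0935). This was the smallest p among the 36 ligands. The second Ccl9 probe set, which is dimmer, gave 3.09 and 3.39 against 3.90 and 4.89, a difference of 1.15 in the same direction. Ccl6 measured 5.01 and 5.13 on the WT arrays and 5.81 and 6.64 on the TG arrays. The groups did not overlap, the TG arrays lay 0.84 apart, and the difference was 1.15 (95% interval 0.39 to 1.92, limma adjusted p = 0.242). Ccr1, their receptor on myeloid cells, measured 5.14 and 5.26 against 4.81 and 5.35, so its groups overlapped.

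Ccl3, Ccl4 and Ccl5, which are made by activated T cells, natural killer cells and macrophages, had differences from -0.33 to 0.23. Ccl4 measured 6.86 and 6.93 on the WT arrays and 7.06 and 7.18 on the TG arrays, higher without overlap by 0.23 (95% interval -0.05 to 0.50, limma adjusted p = 0.431). Its neighbour Ccl3 measured 6.23 and 6.24 against 5.83 and 6.19, a difference of -0.22 as deposited and 0.00 after quantile normalization. Ccl5, also called RANTES and stored by memory CD8 T cells, measured 10.15 and 10.12 on the WT arrays and 9.50 and 10.11 on the TG arrays. TG mouse 1, the dimmer array, stood apart, and TG mouse 2 lay 0.0019 below the lower WT array (difference -0.33, 95% interval -0.90 to 0.25, limma adjusted p = 0.561). Without TG mouse 1 the difference of Ccl5 was -0.02 and without TG mouse 2 it was -0.63. Of the 7 T cell markers on these arrays, Cd8a and Cd8b1 differed by 1.14 and 0.74, Cd3e, Cd3g and Cd3d by 0.18 to 0.29, Cd4 by -0.79 and Trac, which is below the dim limit, by -0.15.

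Upstream windows of the pairs Cxcl2 and Cxcl1 and Ccl9 and Ccl6 are shown. Each pair lies side by side in the annotation, and both members were higher without overlap. The neighbours Ccl12 and Ccl8 were also both higher without overlap, and their windows, not shown, held no match to the NF-kB consensus. The same held for the direction of the neighbours Ccl2 and Ccl7, which had no promoter entry. Each window is the 250 bases before the start site, written on the strand of the gene, from RefSeq (GRCm38.p6). Capitals mark matches to the NF-kB consensus on either strand, with overlapping matches merged, and no window of the 4 held the core of the interferon-stimulated response element (GAAA, any pair of bases, GAAA). The coordinates are chr5:90903649-90903898 (plus strand) for Cxcl2, chr5:90890995-90891244 (plus) for Cxcl1, chr11:83578637-83578886 (minus) for Ccl9 and chr11:83593088-83593337 (minus) for Ccl6.
Cxcl2: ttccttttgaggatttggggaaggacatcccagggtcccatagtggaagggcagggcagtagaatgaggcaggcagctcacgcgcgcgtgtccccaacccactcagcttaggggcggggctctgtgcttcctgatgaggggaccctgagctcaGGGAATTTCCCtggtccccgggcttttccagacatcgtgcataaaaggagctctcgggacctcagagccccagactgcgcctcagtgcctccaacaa
Cxcl1: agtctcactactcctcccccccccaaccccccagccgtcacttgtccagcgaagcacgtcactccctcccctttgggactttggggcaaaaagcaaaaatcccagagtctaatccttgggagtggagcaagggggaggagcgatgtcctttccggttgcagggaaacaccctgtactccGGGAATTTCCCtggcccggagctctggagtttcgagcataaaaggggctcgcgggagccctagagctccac
Ccl9: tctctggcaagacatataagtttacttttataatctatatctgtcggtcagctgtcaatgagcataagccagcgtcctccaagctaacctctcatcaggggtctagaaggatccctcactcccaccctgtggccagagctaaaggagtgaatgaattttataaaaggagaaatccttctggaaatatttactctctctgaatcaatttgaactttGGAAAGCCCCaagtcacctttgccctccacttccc
Ccl6: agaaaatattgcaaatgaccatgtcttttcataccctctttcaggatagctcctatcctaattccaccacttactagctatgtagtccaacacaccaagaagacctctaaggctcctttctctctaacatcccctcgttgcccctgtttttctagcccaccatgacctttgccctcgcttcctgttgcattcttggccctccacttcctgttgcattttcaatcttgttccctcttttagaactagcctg

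Cxcl2 and Cxcl1 held the same run of 11 bases in capitals, at -97 to -87 and at -71 to -61 from the start site. Ccl9 held a match on the opposite strand at -35 to -26, and these letters were not found in the window of Ccl6. Promoter entries were matched for 26 of the 36 ligands, with 29 windows in all. The NF-kB consensus was found in 6 of these 29 windows (20.7%) and in 7.25% of 32851 windows of the same length over all entries. The 6 belonged to Cxcl2, Cxcl1, Ccl9, Cxcl10, Ccl1 and Ccl20. The first 3 were higher without overlap and the groups of the other 3 overlapped. Of all 36 ligands, 15 (41.7%) were higher without overlap, beside 17.7% of all probe sets. A relation between the match and the direction was not tested. The interferon-stimulated core, searched on both strands, was found in 3 windows (10.3%, beside 2.98% over all entries), those of Cxcl10, Ccl19 and Cxcl14. The letters TATAAA, searched on both strands, were found in 9 windows (31%, beside 12.4%). A match is a stretch of letters and not a measured binding site.

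The ligands listed here under CCR2, a receptor that brings monocytes into tissue, were higher without overlap in 4 of 4 cases. Ccl7, below the dim limit, was among them, and the differences ran from 0.08 to 0.89. The receptor that each of them uses in the mouse, Ccl8 included, was not examined. Over all probe sets 17.7% were higher without overlap. Ccl8, known as MCP-2, measured 6.46 and 6.60 on the WT arrays and 7.02 and 7.69 on the TG arrays. Both TG arrays were above both WT arrays, by 0.83 on average (95% interval 0.19 to 1.46, limma adjusted p = 0.286). Ccl12, or MCP-5, its neighbour in the annotation, measured 3.77 and 3.76 against 4.24 and 5.06. It lay below the dim limit on both WT arrays and above it on both TG arrays (difference 0.89, 95% interval 0.15 to 1.63, limma adjusted p = 0.309). Ccl2, the best known monocyte attractant, measured 4.67 and 4.78 against 4.82 and 4.87, a difference of 0.12 that was close to the gap between the WT arrays. Ccl7 lay between 3.11 and 3.23 on all 4 arrays, near the non-specific controls. Ccr2, a receptor of monocytes and some T cells, measured 5.66 and 5.77 on the WT arrays and 6.83 and 6.97 on the TG arrays. It was higher by 1.19 on the brightest of its 4 probe sets (SE 0.11, limma adjusted p = 0.0935), and by 0.75 when these were averaged. Monocyte markers differed unevenly, with Cd14 at 0.97, Lyz2 at 0.53, Csf1r at 0.14 and Adgre1 at 0.08.

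Of 4 ligands that organise the resting lymph node, 2 were lower without overlap, beside 31.4% of all probe sets, and 2 overlapped. Cxcl13, which draws CXCR5-bearing B cells into follicles, measured 6.04 and 6.09 on the WT arrays and 5.53 and 5.78 on the TG arrays. Both TG arrays lay below both WT arrays (difference -0.41, 95% interval -0.74 to -0.08, limma adjusted p = 0.302). After quantile normalization the difference was -0.21. The second Cxcl13 probe set also differed downward, with 5.10 and 4.88 against 4.21 and 4.72. Cxcr5, the receptor of Cxcl13 on follicular B cells, measured 8.68 and 8.73 on the WT arrays and 7.22 and 7.64 on the TG arrays, a difference of -1.28 (SE 0.17, limma adjusted p = 0.121). Ccl19, a CCR7 ligand of the T cell zone, measured 5.62 and 5.72 against 5.45 and 5.53 (difference -0.18, or -0.01 after quantile normalization). Ccl21b, whose probe set can share signal with its near-identical copies, measured 4.63 and 4.38 against 4.01 and 4.53, so the groups overlapped. Cxcl12, the CXCR4 ligand of stroma, stayed between 3.48 and 3.83 on its brightest probe set. Ccr7 and Cxcr4 were not analysed here.

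The interferon-induced ligands of CXCR3 had differences from -0.81 to 0.14. Cxcl9, also called MIG and induced by interferon gamma, measured 6.18 and 6.16 on the WT arrays and 4.98 and 5.73 on the TG arrays. The WT arrays were nearly equal, both TG arrays were below them, and the lowest was TG mouse 1. The mean was 6.17 ± 0.02 in WT and 5.36 ± 0.53 in TG (SD, n = 2 each), a 1.76-fold lower signal (log2 difference -0.81, 95% interval -1.50 to -0.12, limma adjusted p = 0.312). Cxcl10, or IP-10, measured 4.98 and 5.00 against 4.73 and 5.52, with the TG arrays on either side of the WT arrays. Without TG mouse 1 its difference was 0.53 and without TG mouse 2 it was -0.26, so no direction can be given for it. Cxcl11 measured 4.63 and 4.51 against 4.05 and 4.48, a difference of -0.31 with a gap of 0.034 between the groups. Cxcr3, the receptor on effector and memory T cells, was higher, at 7.07 and 7.27 on the WT arrays and 7.75 and 8.03 on the TG arrays (difference 0.72, SE 0.15, limma adjusted p = 0.194). Cxcl9 and Cxcr3 differed in opposite directions, while Cxcl13 and Cxcr5 differed in the same direction. These are side by side values on the same 4 arrays, and no relation between them was tested.

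**Figure D2:**
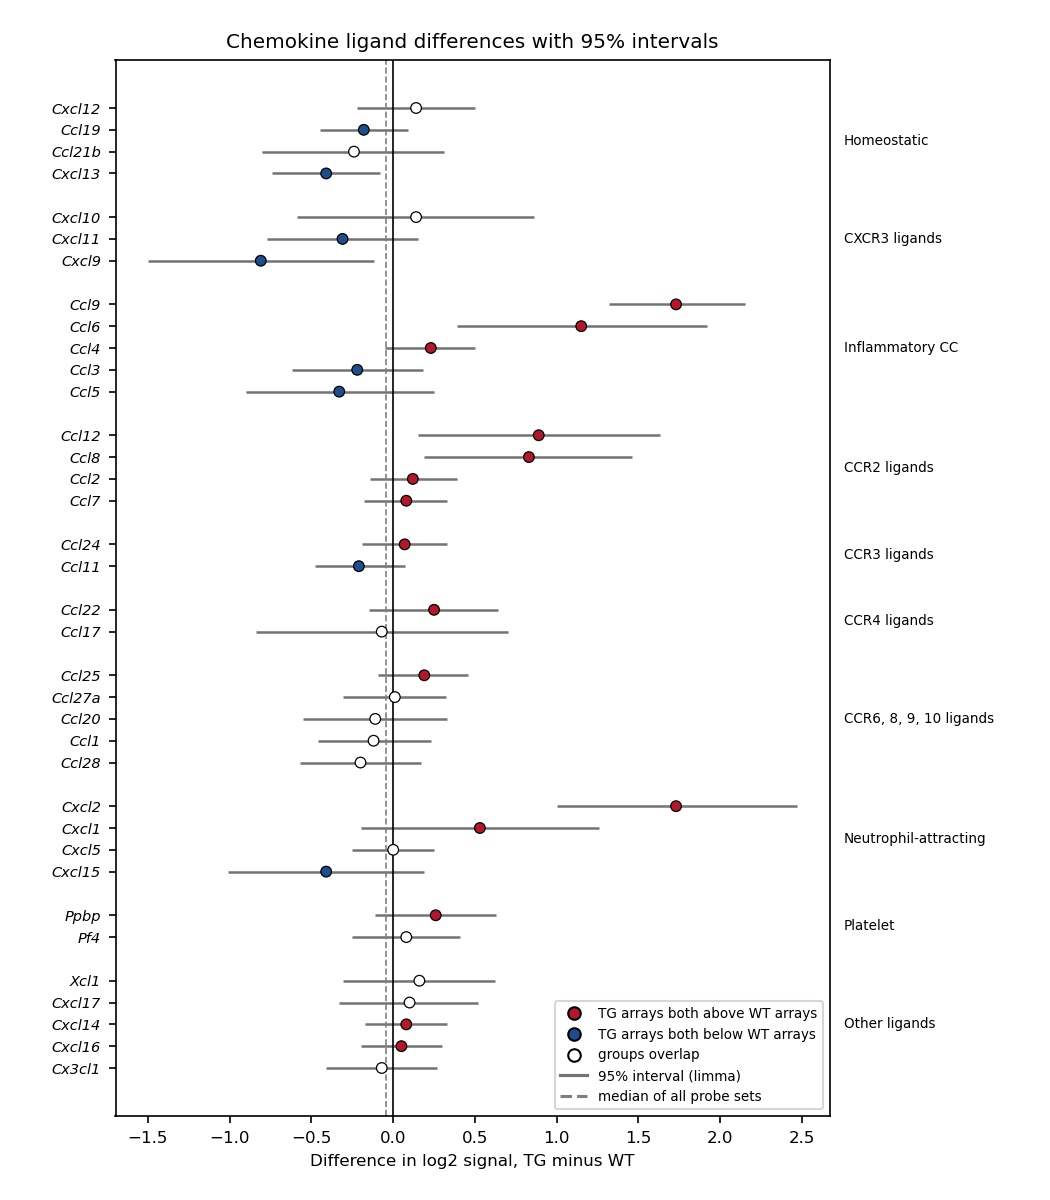
Difference in log2 signal (TG minus WT) of the 36 chemokine ligands with the 95% interval of the limma fit, filled red or blue where the groups did not overlap and open where they did. The intervals of 7 ligands leave out 0, for Ccl9, Cxcl2, Ccl6, Ccl8 and Ccl12 on the higher side and Cxcl13 and Cxcl9 on the lower side.

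The remaining ligands had differences from -0.21 to 0.26 in log2 signal. Xcl1, the lymphotactin of activated CD8 T and natural killer cells, measured 6.92 and 6.97 on the WT arrays and 6.88 and 7.33 on the TG arrays. The TG arrays lay on either side of the WT arrays (difference 0.16, 95% interval -0.31 to 0.62, limma adjusted p = 0.718). Its receptor Xcr1, a marker of cross-presenting dendritic cells, measured 4.09 and 3.92 against 4.90 and 4.21, with both WT values below the dim limit. Of 4 measured dendritic cell markers, 2 were higher and 2, Flt3 and Itgax, were lower without overlap, beside 17.7% and 31.4% of all probe sets. The summed signal of these markers was 189 and 202 on the WT arrays against 172 and 162 on the TG arrays. Cxcl16, a membrane-anchored ligand of antigen-presenting cells, was flat at 6.31 and 6.32 on the WT arrays and 6.38 and 6.35 on the TG arrays. The difference of 0.05 had a 95% interval of -0.20 to 0.30 (limma adjusted p = 0.836), and its second probe set differed by -0.19. Cxcr6, the receptor of Cxcl16 on memory and natural killer T cells, lay at 6.21 and 6.33 in WT and at 8.00 and 8.14 in TG, a difference of 1.80 (SE 0.11, limma adjusted p = 0.056). The interval of the ligand spans 0 on arrays where its receptor had the smallest p of the 33 measured receptor and signalling genes.

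Ccl22, which attracts CCR4-bearing regulatory and helper T cells, measured 6.51 and 6.64 on the WT arrays and 6.99 and 6.66 on the TG arrays. It was higher by 0.25 without overlap, but TG mouse 2 lay only 0.019 above the higher WT array (95% interval -0.15 to 0.64, limma adjusted p = 0.524). Ccl17, the other CCR4 ligand, measured 5.40 and 5.27 against 4.85 and 5.69, with the TG arrays on either side of the WT arrays. Ccl25, the CCR9 ligand of thymus and gut, measured 4.38 and 4.47 against 4.67 and 4.56, but its second probe set differed by -0.50, from 4.76 and 4.68 to 4.03 and 4.42. No direction can be given for it. Ccl11, or eotaxin, measured 2.73 and 2.70 against 2.44 and 2.57, all within the range of the non-specific controls, and Ccl24, another ligand of CCR3, differed by 0.07. Ppbp, a platelet chemokine, measured 2.82 and 2.72 against 3.18 and 2.88, and Pf4, also of platelets, measured 3.95 and 3.96 against 3.91 and 4.16. Ccl1, Ccl20, Ccl27a, Ccl28, Cx3cl1 and Cxcl17 had overlapping groups and differences from -0.20 to 0.10, and Cxcl14 differed by 0.08. Ccl20, which guides CCR6-bearing cells, measured 5.23 and 5.19 against 4.89 and 5.31, whereas Ccr6, abundant on B cells, was lower at 10.02 and 10.08 against 9.24 and 9.57 (difference -0.65, SE 0.15, limma adjusted p = 0.217).

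The family is clustered in the genome, and neighbours did not share a direction throughout. Of the 36 genes, 12 lie on chromosome 11 and 11 on chromosome 5. In annotation order the first cluster on chromosome 11 read Ccl2 (0.12), Ccl7 (0.08), Ccl11 (-0.21), Ccl12 (0.89), Ccl8 (0.83) and Ccl1 (-0.12). The second read Ccl5 (-0.33), Ccl9 (1.73), Ccl6 (1.15), Ccl3 (-0.22) and Ccl4 (0.23). On chromosome 5, Cxcl15 (-0.41), Cxcl1 (0.53) and Cxcl2 (1.73) are followed at a distance by Cxcl9 (-0.81) and Cxcl10 (0.14). Ccl12 and Ccl8, Ccl9 and Ccl6, and Cxcl1 and Cxcl2 lie side by side, whereas Art3 lies between Cxcl9 and Cxcl10. Of 15 further probe sets of the ligands, 8 had the sign of the representative and 7 the other sign. The widest of these were 1.15 for Ccl9, -0.52 for Cxcl13 and -0.50 for Ccl25.

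Among the other genes of the pathway, 33 of 39 listed were measured, and none passed an adjusted p of 0.05 by limma. Of 14 measured receptors, 5 were higher and 2 were lower at an unadjusted p under 0.05, with a median difference of 0.13. The higher ones were Cxcr6, Ccr2, Cxcr3, Ccr10 and Ccr8, and the lower ones were Cxcr5 and Ccr6. Ccr10, a receptor of mucosal plasma cells and skin T cells, measured 4.87 and 4.61 on the WT arrays and 5.42 and 5.29 on the TG arrays. Of 15 genes of signalling and ligand processing, 5 were lower at an unadjusted p under 0.05 and none was higher, with a median of -0.18. Ptk2b, a kinase downstream of chemokine receptors, differed by -0.54 and Pik3cg, the phosphoinositide kinase activated by G proteins, by -0.50. Dpp4, a protease that trims chemokines, measured 7.76 and 7.91 on the WT arrays and 6.91 and 7.37 on the TG arrays (difference -0.69). Its difference was -0.40 when its 2 probe sets were averaged, -0.46 without TG mouse 1 and -0.92 without TG mouse 2. Of 4 atypical receptors, which scavenge ligands, Ackr3 measured 3.55 and 3.47 against 3.12 and 3.16, all below the dim limit. Over all probe sets, 3.21% were higher and 10.5% lower at that level.

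**Figure D3:**
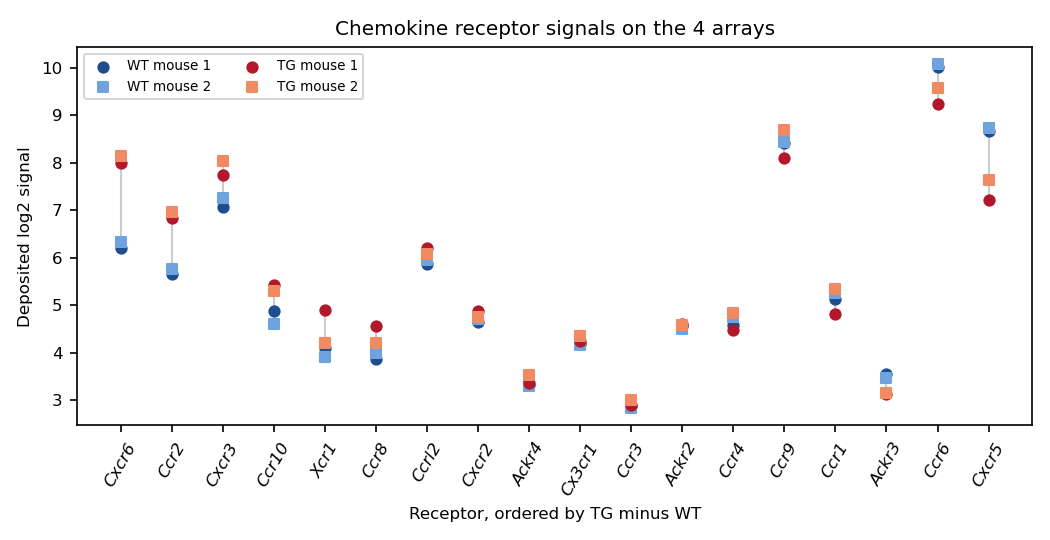
Deposited log2 signals of 18 measured chemokine receptors (14 typical and 4 atypical) on the 2 WT arrays (blue) and 2 TG arrays (red and orange), ordered by TG minus WT. Cxcr6 at the left (difference 1.80) and Cxcr5 at the right (-1.28) mark the ends. The groups overlap only for Ccr4, Ccr9 and Ccr1, which lie right of the middle.

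The calls depended on the scaling between arrays. The 7 ligands, picked by p from these same values, kept their direction under quantile normalization and median centring. Leaving out an array could not turn it, because both TG values lay on the same side of both WT values. After quantile normalization 4 ligands passed an adjusted p of 0.05 by limma (11.1%), all higher, where 0.893% of all probe sets were higher past that threshold and 1.93% passed in either direction. These were Ccl9 (1.87, limma adjusted p = 0.00647), Cxcl2 (1.89, adjusted p = 0.0212), Ccl8 (1.04, adjusted p = 0.0376) and Ccl6 (1.31, adjusted p = 0.0427). Median centring called Ccl9 and Cxcl2, where 1.36% of all probe sets passed. Cxcl9 did not pass under either scaling (-0.65 after quantile normalization, limma adjusted p = 0.16). Some smaller differences moved more in proportion with quantile normalization, to 0.44 for Ccl4, 0.47 for Ccl22, 0.37 for Xcl1 and -0.20 for Ccl5. The TG arrays set most of the spread. TG mouse 2 exceeded TG mouse 1 for 28 of the 36 ligands (77.8%), beside 70.3% of all probe sets. For the ligands, the median gap between the TG arrays was 0.32 in size against 0.06 between the WT arrays. Over all probe sets these gaps were 0.22 and 0.07. Cxcl2 differed by 1.33 without TG mouse 2 and by 2.13 without TG mouse 1, Ccl6 by 0.74 and 1.57, Ccl8 by 0.49 and 1.16, and Ccl12 by 0.48 and 1.29. Ccl9 held more closely, at 1.54 and 1.92. Cxcl9 differed by -1.19 without TG mouse 2 and by -0.44 without TG mouse 1, and Cxcl13 by -0.53 and -0.28.

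**Figure D4:**
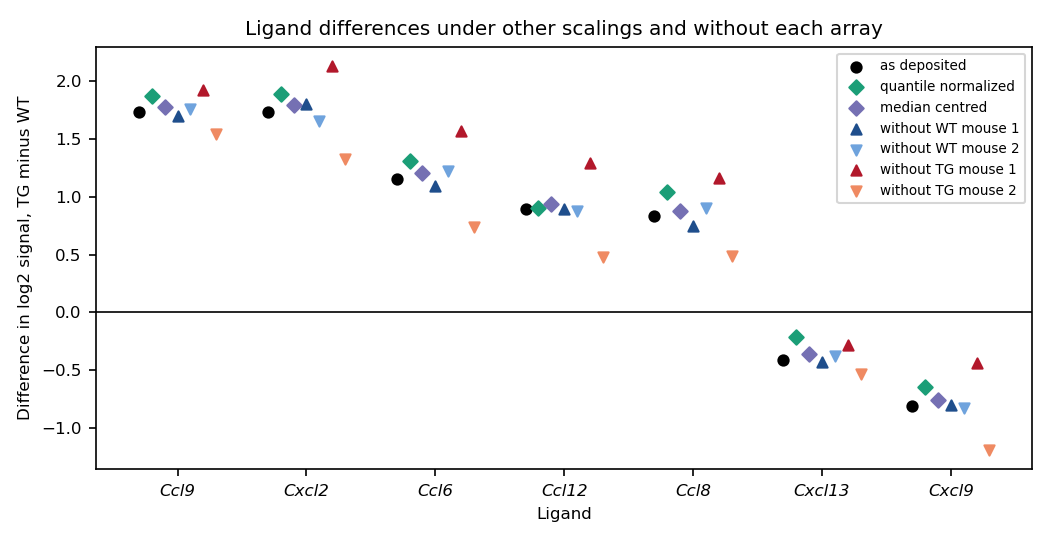
Difference in log2 signal (TG minus WT) of the 7 ligands with an unadjusted p under 0.05, as deposited, after quantile normalization or median centring, and without each array in turn. Every point of Ccl9, Cxcl2, Ccl6, Ccl12 and Ccl8 lies above 0 and every point of Cxcl13 and Cxcl9 below 0. With an array left out this side was fixed in advance, because the groups of the 7 did not overlap. Leaving out a TG array moves the points most, except for Cxcl13, which quantile normalization moves most (to -0.21).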

How the data were processed

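Per the labels' protocols, RNA was labelled with a biotin kit of the type that primes at the poly(A) end and hybridised to Affymetrix arrays. The authors deposited log2 signals of 45141 probe sets on every array, and their background correction, normalization and summary of probes are not given in the sources used here. That the scale is log2 was taken from the range of the values. Groups came from the sample titles. Gene names came from the platform annotation, which gave 1 gene for 28898 probe sets, more than 1 for 551 and no gene for 15588, and all 36 ligands had a RefSeq entry (GRCm38.p6) under their Entrez ID. With 104 control probe sets left out, the groups were compared by limma's two-sided moderated test (version 3.58.1, with R 4.3.3), with p-values adjusted by Benjamini-Hochberg across the 45037 remaining probe sets at a threshold of 0.05. There were 2 residual and 2.69 prior degrees of freedom, and the fit was tested on simulated data. Without replication beyond 2 mice per group, the smallest two-sided p that exact permutation allows for any gene is 0.333. The number of arrays limits the precision.

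Values on each array are given for the 12 ligands with the highest mean and the 12 with the smallest p (18 in all), and for others where a paragraph turns on them. The members and gene lists were chosen with earlier results of these data known. Same-numbered mice did not deviate together (correlation of deviations 0.01), and the labels tie no WT mouse to a TG mouse, so no replicate block was used. Alternatives were the block, quantile normalization, median centring, a filter at the 40th percentile, a trended and robust eBayes, averaging a gene's probe sets, a threshold of 0.1 and leaving out each array. Figures were drawn with matplotlib 3.10.9.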

Additional observations from a re-analysis of the deposited data

How the results depend on the processing

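No ligand passed an adjusted p of 0.05 with limma as deposited (7 at an unadjusted p under 0.05). None passed with the replicate block, the filter on dim probe sets, the trended and robust eBayes or averaging of a gene's probe sets. The count was 4 after quantile normalization, 2 after median centring and 1 at a threshold of 0.1 (Ccl9), and 0 to 18 when 1 array was left out. With 1 TG array left out, the lone TG array is assumed to vary like the WT pair, which lay close together, and over all probe sets the count was then 4140 without TG mouse 1 and 19110 without TG mouse 2, against 21 with all arrays and 0 without either WT mouse. Over all probe sets it was 870 after quantile normalization, 614 after median centring, 51 with the filter on dim probe sets and 139 at a threshold of 0.1. Receptor and signalling genes gave 0 calls as deposited, 4 after quantile normalization (Cxcr6, Ccr2, Cxcr3 and Cxcr5), 3 after median centring, 1 with the filter and 1 with averaging of a gene's probe sets, and 0 to 20 when an array was left out. The ligands without overlap numbered 16 to 24 higher and 9 to 18 lower when an array was left out. The 24 came without TG mouse 1, where 40.3% of all probe sets were higher. The 18 came without TG mouse 2, where 59.2% of all probe sets were lower. No such share was taken without a WT mouse. The median difference of the 36 ligands was -0.056 to 0.101 with an array left out, below 0 only without TG mouse 2. Among the 36 ligands, signs turned for Ccl25 (-0.15) and Cxcl16 (-0.07) with that averaging, whose second probe sets differed the other way, and for Cx3cl1 (0.02). After quantile normalization they turned for Ccl3 (0.00), Ccl17 (0.04), Ccl20 (0.01), Cx3cl1 (0.07) and Cxcl5 (-0.02). When 1 array was left out, differences spanned 0 for 10 ligands: from -0.26 to 0.53 for Cxcl10, -0.49 to 0.35 for Ccl17, -0.32 to 0.11 for Ccl20, -0.50 to 0.02 for Ccl21b, -0.20 to 0.06 for Cx3cl1, -0.10 to 0.29 for Cxcl17, -0.04 to 0.21 for Pf4, -0.07 to 0.38 for Xcl1, -0.09 to 0.11 for Ccl27a and -0.25 to 0.01 for Ccl1. The receptor Ccr1 spanned -0.39 to 0.15. Apart from Ccl1, whose ends came from leaving out a WT mouse, the ends of these ranges came from leaving out a TG mouse. The replicate block changed no call of a ligand or receptor, and gave 15 calls over all probe sets. The cause of the changes with scaling was not tested. Dim signals limit Ccl7, Ccl11, Cxcl5, Cxcl12, Cxcl15, Pf4 and Ppbp.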

Other observations

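The control RNAs that are spiked into every hybridisation did not read alike on the 4 arrays. The 6 probe sets of bioB averaged 7.28 and 7.40 on the WT arrays, 6.36 on the array of TG mouse 1 and 7.06 on that of TG mouse 2, in log2 signal. The 4 probe sets of cre averaged 11.95 and 12.03 on the WT arrays and 11.79 and 11.81 on the TG arrays.

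Some defining markers of cells that make or follow chemokines were themselves far apart between the groups. Cpa3, a protease of mast cells and basophils, measured 4.79 and 4.66 on the WT arrays and 6.71 and 7.45 on the TG arrays, while Mcpt8, a basophil protease, stayed between 3.01 and 3.17. Eomes, a transcription factor of natural killer and memory CD8 T cells, measured 8.04 on both WT arrays and 9.23 and 9.20 on the TG arrays, and Ncr1, a natural killer receptor, overlapped between the groups at 5.86 and 6.16 against 5.84 and 6.30.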
